A study of Mus musculus with 15 samples.

Results

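Genes that mark lung endothelium were followed in whole lung tissue of mice that breathed spontaneously or were ventilated with air or with hydrogen sulfide (H2S). The group was a list of 40 genes chosen by name: 4 arterial, 3 venous, 8 capillary and 3 lymphatic markers, 5 genes of the angiopoietin and Tie system, 6 transcription factors, and 11 genes of the endothelial surface and junctions. Each gene was represented by the transcript cluster that carried its symbol alone. In all, 39 of the 40 genes had such a row among the 28361 rows of the table, and Prx was the exception.

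Arrays of 15 male C57BL/6N mice, 5 in each of 3 groups, measured RNA of a whole lobe, the inferior lobe of the right lung. All mice were anaesthetised with ketamine at 90 mg/kg and acepromazine at 1 mg/kg and carried an arterial line and a tracheal tube. Control mice were left to breathe synthetic air on their own over 6 h, whereas ventilated mice received tidal volumes of 12 ml/kg at a positive end-expiratory pressure of 2 cmH2O over the same time, the gas being synthetic air alone or with H2S added at 80 ppm. Control mice therefore shared the anaesthesia and instrumentation but not the ventilator, and spontaneous breathing of H2S was not analysed here.

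Endothelial cells line every blood and lymph vessel, and in the lung they form the dense capillary net of the alveolar walls. Their identity is held by transcription factors of the ETS family (Erg, Fli1, Ets1) and the SOXF family (Sox7, Sox17, Sox18), while the receptor Tek (Tie2), its partner Tie1 and the angiopoietin ligands keep the vessel wall quiescent or loosen it. Arteries, veins, capillaries and lymphatics each add genes of their own, such as the gap junction proteins Gja4 and Gja5 in arteries.

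Promoter sequences are shown for the 2 arterial connexins and the 2 Tie receptors, which fell in at least 1 of the ventilated groups. Each runs 5′ to 3′ on the strand of its gene, from 250 bases before to 50 bases after the start, as given by RefSeq for GRCm38.p6. Capitals mark matches, on either strand, to AGGAAG, the core letters of many ETS sites, or to ACAAT, the core letters of many SOX sites.
Gja5 (chr3:97032152-97032451, plus strand): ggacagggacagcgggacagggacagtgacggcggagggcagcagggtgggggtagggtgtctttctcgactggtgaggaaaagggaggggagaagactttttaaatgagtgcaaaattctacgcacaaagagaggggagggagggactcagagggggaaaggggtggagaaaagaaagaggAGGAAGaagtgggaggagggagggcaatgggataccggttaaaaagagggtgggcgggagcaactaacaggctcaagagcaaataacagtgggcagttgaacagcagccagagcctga
Gja4 (chr4:127313990-127314289, minus strand): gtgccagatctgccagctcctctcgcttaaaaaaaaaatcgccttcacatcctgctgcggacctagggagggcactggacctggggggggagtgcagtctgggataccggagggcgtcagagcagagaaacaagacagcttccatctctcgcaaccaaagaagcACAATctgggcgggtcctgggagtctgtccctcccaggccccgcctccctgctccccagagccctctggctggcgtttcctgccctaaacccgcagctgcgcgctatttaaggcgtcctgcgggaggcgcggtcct
Tek (chr4:94739039-94739338, plus strand): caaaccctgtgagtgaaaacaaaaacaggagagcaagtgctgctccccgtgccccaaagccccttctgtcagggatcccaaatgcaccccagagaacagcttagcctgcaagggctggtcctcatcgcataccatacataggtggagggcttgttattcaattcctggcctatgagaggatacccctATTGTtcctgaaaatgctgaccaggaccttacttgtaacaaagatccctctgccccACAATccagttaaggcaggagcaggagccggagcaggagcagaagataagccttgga
Tie1 (chr4:118489800-118490099, minus strand): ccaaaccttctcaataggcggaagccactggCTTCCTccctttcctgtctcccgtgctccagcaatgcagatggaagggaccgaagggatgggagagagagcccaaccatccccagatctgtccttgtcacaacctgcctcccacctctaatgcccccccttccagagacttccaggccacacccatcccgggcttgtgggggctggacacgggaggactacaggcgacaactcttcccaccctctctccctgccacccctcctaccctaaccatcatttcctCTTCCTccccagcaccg

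In these windows Gja5 held 1 match to AGGAAG and Tie1 held 2, while Gja4 held 1 match to ACAAT and Tek held 2. Sequences were given for 22 of the 40 genes. AGGAAG stood in the promoter of 11 of these 22 genes, against 38.4% of 27025 genes, and ACAAT in 40.9% against 34.4%. A match of these letters is a description and not a binding site, and no match says only that the letters are not in the window.

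Most endothelial genes did not pass the test after ventilation, and those that did lay in several vessel classes, mostly as falls. With air ventilation 7 of 39 genes passed the test against control (limma, Benjamini-Hochberg adjusted p below 0.05 over all rows), 0 higher and 7 lower: Gja4, Gja5, Tmem100, Tek, Angpt2, Cd34 and Mmrn2. With H2S ventilation 13 of 39 passed, 4 higher (Sox7, Lyve1, Mmrn1 and Ace) and 9 lower (the same genes as with air except Cd34, together with Tie1, Fli1 and Ets1). With air, the absence of higher genes depended on the test: CyberT, the test named in the methods, gave 4 higher (Ace, Lyve1, Mmrn1 and Slco2a1) and 10 lower. Both comparisons used the same 5 control mice. Between H2S and air ventilation, 0 of 39 passed, against 0.0776% of all rows.

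These counts are read against all rows. With air, 3.44% of rows passed, 1.56% higher and 1.89% lower, and 5.8% passed among the 14180 rows brighter than the median, to which 38 of the 39 genes belonged. With H2S, 7.86% of rows passed, 3.92% higher and 3.93% lower, and 12.7% of the brighter rows passed. The share of endothelial genes was 17.9% with air and 33.3% with H2S. The genes were chosen with earlier results of these data known, so these shares are not independent evidence. The median log2 fold change of the 39 genes was -0.04 with air and -0.06 with H2S, against 0.01 and 0.00 over all rows. In a bulk tissue, fewer endothelial cells and less RNA per cell cannot be told apart.

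At the thresholds of the study (a fold of 1.7 or more, p up to 0.005 and adjusted p up to 0.1), 1 of the 39 genes, Gja5, passed in each comparison with control, against 0.959% of rows with air and 1.45% with H2S. Gja5 also stands in a gene table that the study drew from these arrays, so its direction is not independent evidence. The air-ventilated mice lay wholly above the control mice in 3 genes and wholly below them in 9, against 5.55% of rows without overlap. The H2S-ventilated mice lay above in 3 genes and below in 8, against 8.2% of rows.

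**Figure D1:**
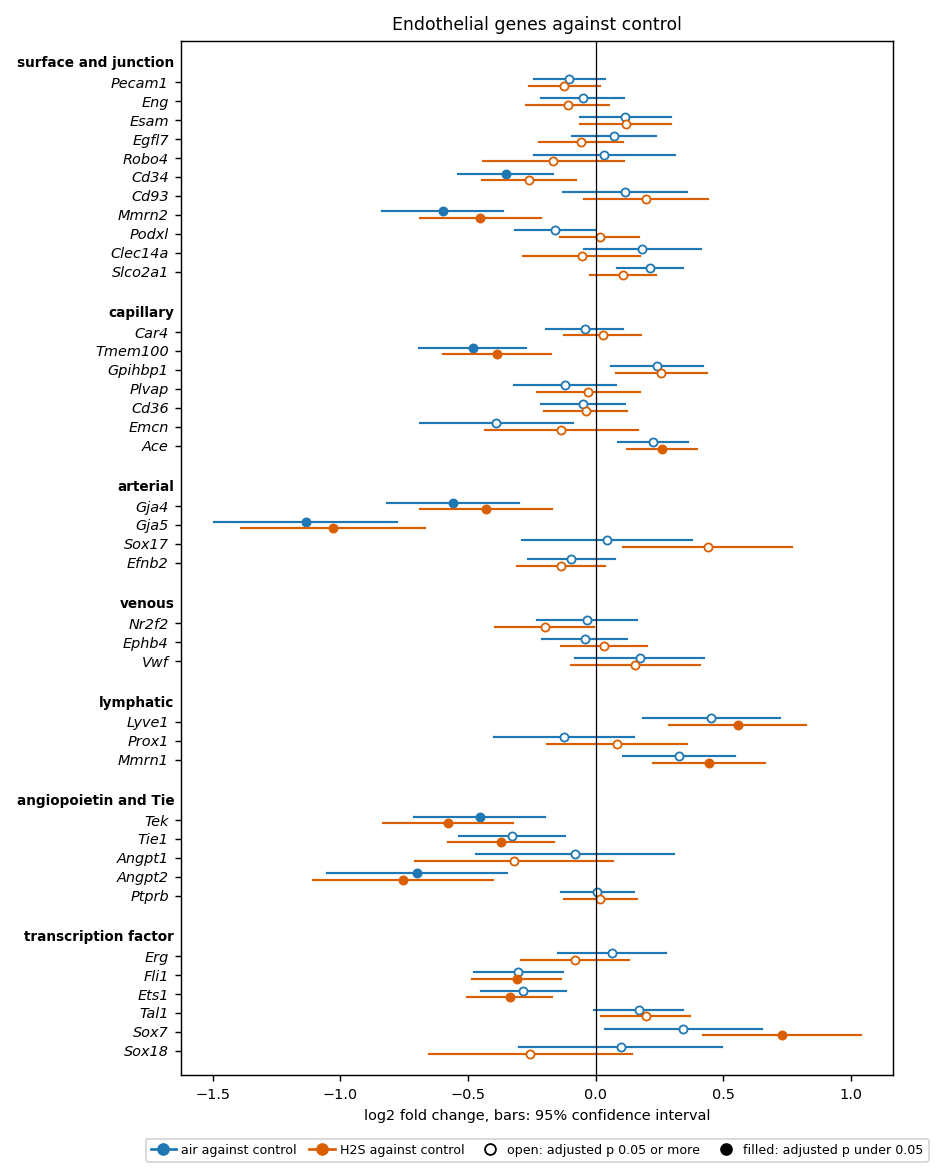
Log2 fold change of each endothelial gene against the 5 control mice, with air ventilation in blue and H2S ventilation in orange, by class; bars are 95% confidence intervals and filled points passed at an adjusted p below 0.05. Gja5 lies farthest to the left at -1.14 and -1.03, and Sox7 with H2S farthest to the right at 0.73.

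Of the 4 arterial genes, both connexins fell in both ventilated groups, and the transcription factor Sox17 and the membrane ligand Efnb2 did not pass. Gja5, a connexin, joins arterial endothelial cells through gap junctions. The Gja5 intensities were 395, 416, 447, 496 and 550 in control mice, 174, 183, 192, 214 and 299 in air-ventilated mice and 163, 209, 210, 250 and 317 in H2S-ventilated mice. All ventilated mice lay below all control mice. Gja5 fell 2.20-fold with air (log2 fold change -1.14, SE 0.17, limma adjusted p = 0.0027) and 2.04-fold with H2S (-1.03, SE 0.17, adjusted p = 0.0017), the largest changes of the 39 genes in both comparisons.

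Gja4, the other arterial connexin, was lower too. The Gja4 intensities were 489, 489, 542, 576 and 668 in control mice, 304, 351, 379, 405 and 437 in air-ventilated mice and 324, 381, 436, 452 and 464 in H2S-ventilated mice. It fell by 0.56 on the log2 scale with air (SE 0.12, limma adjusted p = 0.016) and by 0.43 with H2S (SE 0.12, adjusted p = 0.040), again without overlap with control. The call with H2S was lost without control replicate 3, 4 or 5, air replicate 5 or H2S replicate 1, 3 or 5, each left out alone, and when the 2 groups were fitted alone, and the call with air was lost without air replicate 2. Efnb2, the arterial partner of the venous receptor Ephb4, differed by -0.09 with air (95% interval -0.27 to 0.08) and by -0.14 with H2S (-0.31 to 0.03).

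None of the 3 venous genes passed in any comparison (limma; 0 at an unadjusted p below 0.05 with air, 1, Nr2f2, with H2S). Ephb4, the venous ephrin receptor, ranged from 973 to 1170 in control mice, from 961 to 1154 with air and from 1020 to 1264 with H2S, so that the 3 groups overlapped. Nr2f2, the transcription factor of venous fate, differed by -0.03 with air (95% interval -0.23 to 0.16) and by -0.20 with H2S (-0.39 to -0.01, adjusted p = 0.23). Vwf, the clotting protein stored in endothelial granules and platelets, differed by 0.17 with air (-0.08 to 0.43) and 0.16 with H2S (-0.10 to 0.41).

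Within the angiopoietin and Tie system, the receptor Tek and the antagonistic ligand Angpt2 fell in both ventilated groups and Tie1 fell with H2S. Thus 2 of 5 genes were lower with air, 3 of 5 with H2S, and 0 higher. Of all rows, 3.44% passed with air and 7.86% with H2S, in either direction. Tek is the tyrosine kinase receptor of the angiopoietins. The Tek intensities were 3736, 3737, 4101, 4341 and 4551 in control mice, 2524, 2940, 2982, 3253 and 3254 in air-ventilated mice and 1999, 2674, 2762, 3169 and 3270 in H2S-ventilated mice. Every ventilated mouse lay below every control mouse. Tek fell 1.37-fold with air (log2 -0.45, SE 0.12, limma adjusted p = 0.049) and 1.49-fold with H2S (-0.58, SE 0.12, adjusted p = 0.0069). The call with air lay at the threshold and was lost on quantile normalizing again or median centring, and of the 15 mice left out in turn it was kept only without air replicate 4 or H2S replicate 2 or 4, whereas the call with H2S was kept on leaving out each of them.

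Angpt2, which endothelial cells release to weaken Tek signalling, was lower too. The Angpt2 intensities were 306, 320, 334, 397 and 443 in control mice, 136, 214, 247, 264 and 268 in air-ventilated mice and 189, 197, 200, 219 and 259 in H2S-ventilated mice. It fell 1.62-fold with air (log2 -0.70, SE 0.17, limma adjusted p = 0.027) and 1.69-fold with H2S (-0.75, SE 0.17, adjusted p = 0.0099), and neither ventilated group overlapped with control. Without control replicate 3, 4 or 5 or air replicate 5, each left out alone, its call with air was lost, as it was when the 2 groups were fitted alone.

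Tie1, the receptor without a ligand of its own that pairs with Tek, ranged from 1525 to 1764 in control mice, from 1109 to 1504 with air and from 1085 to 1457 with H2S. The groups did not overlap, but Tie1 passed only with H2S (log2 -0.37, SE 0.10, limma adjusted p = 0.028), since with air it stood at -0.33 (SE 0.10, adjusted p = 0.084). Its call with H2S was lost without control replicate 1, 2, 3 or 4 or H2S replicate 1, 3 or 5, each left out alone. The difference of -0.04 between H2S and air ventilation did not pass (adjusted p = 0.997). Angpt1, the activating ligand made mainly by cells around the vessel, was the least precise of the class, with -0.08 with air (95% interval -0.47 to 0.31) and -0.32 with H2S (-0.71 to 0.07). The markers of pericytes and smooth muscle, which make Angpt1, gave 0 calls of 10 with air, against 3.44% of all rows. With H2S they gave 3 of 10 (1 higher, 2 lower), against 7.86%. The sum of their intensities ranged from 11022 to 15433 in control mice, from 10398 to 13093 with air and from 10443 to 11908 with H2S, and their part in the result was not tested. Ptprb, the phosphatase that acts on Tek, was held within -0.14 to 0.15 with air and -0.13 to 0.16 with H2S (95% intervals).

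**Figure D2:**
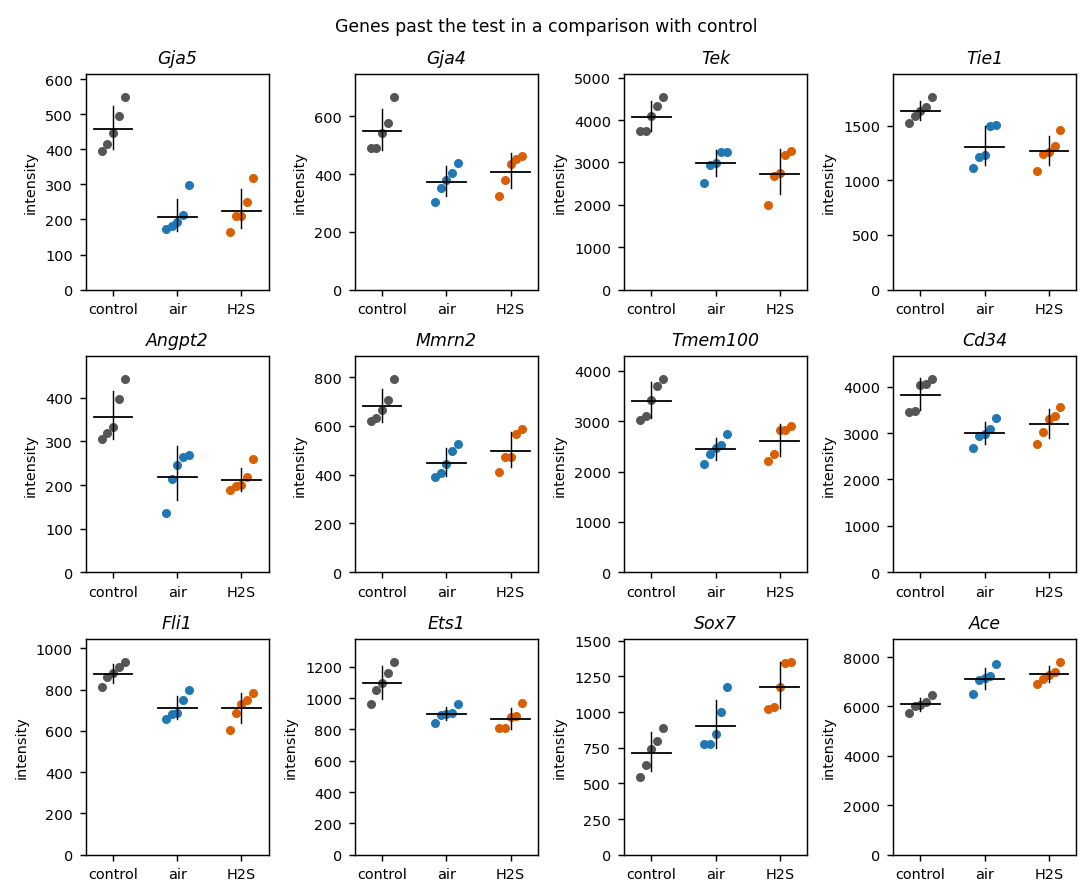
Intensity (linear scale) of 12 genes that passed in a comparison with control, in each of the 5 mice of each group; horizontal bars are geometric means and vertical bars 1 SD on the log2 scale. The control points of Gja5, Tek and Angpt2 lie wholly above both ventilated groups, and those of Sox7 below all H2S-ventilated mice.

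Of the 7 capillary genes measured, Tmem100 was lower in both ventilated groups and Ace was higher with H2S, and the other 5 did not pass. Tmem100 is a small membrane protein induced by bone morphogenetic protein signalling in endothelium. The Tmem100 intensities were 3033, 3112, 3427, 3700 and 3835 in control mice, 2149, 2342, 2474, 2530 and 2743 in air-ventilated mice and 2216, 2343, 2818, 2834 and 2903 in H2S-ventilated mice. The ventilated mice all lay below the control mice. Tmem100 fell 1.40-fold with air (log2 -0.48, SE 0.10, limma adjusted p = 0.012) and 1.31-fold with H2S (-0.39, SE 0.10, adjusted p = 0.024). The call with air was kept on leaving out each mouse in turn, but that with H2S was lost without control replicate 3, 4 or 5 or H2S replicate 2 or 5, and when the 2 groups were fitted alone.

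Ace, the angiotensin-converting enzyme of the capillary surface, moved the other way. The Ace intensities were 5736, 6005, 6078, 6196 and 6462 in control mice, 6520, 7056, 7134, 7227 and 7699 in air-ventilated mice and 6929, 7100, 7281, 7383 and 7809 in H2S-ventilated mice. All ventilated mice lay above all control mice, but the difference was small, at 0.22 with air (SE 0.06, limma adjusted p = 0.072) and 0.26 with H2S (SE 0.06, adjusted p = 0.020). The call with H2S was lost without control replicate 4 or H2S replicate 3 and on quantile normalizing again, and with air Ace passed by CyberT (adjusted p = 0.0093). Gpihbp1, which anchors lipoprotein lipase to the capillary wall, stood at 0.24 and 0.26 with air and H2S (adjusted p = 0.16 and 0.076). Emcn, a sialomucin of capillaries and veins, stood at -0.39 with air (adjusted p = 0.18) with a 95% interval of -0.69 to -0.09. The carbonic anhydrase Car4, the fatty acid transporter Cd36 and the diaphragm protein Plvap had 95% intervals within -0.32 to 0.18 in both comparisons.

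Among the 11 surface and junction genes, Mmrn2 and Cd34 fell with air and Mmrn2 fell with H2S. Mmrn2 (multimerin 2) is an extracellular matrix protein made by endothelium that binds Clec14a and Cd93. The Mmrn2 intensities were 622, 633, 667, 706 and 792 in control mice, 389, 406, 444, 498 and 526 in air-ventilated mice and 412, 472, 473, 568 and 586 in H2S-ventilated mice. Its ventilated and control mice did not overlap. Mmrn2 fell 1.52-fold with air (log2 -0.60, SE 0.11, limma adjusted p = 0.0074) and 1.37-fold with H2S (-0.45, SE 0.11, adjusted p = 0.020). The call with H2S was lost without H2S replicate 1 or 5. Its binding partners did not pass: Clec14a stood at 0.18 with air and -0.05 with H2S, and Cd93 at 0.12 and 0.20.

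Cd34, a sialomucin of endothelium and of blood stem cells, ranged from 3459 to 4162 in control mice, from 2681 to 3331 with air and from 2767 to 3552 with H2S. It fell by 0.35 on the log2 scale with air (SE 0.09, limma adjusted p = 0.035), and stood at -0.26 with H2S (SE 0.09, adjusted p = 0.083). The call with air was lost without control replicate 3, 4 or 5 or air replicate 1, 3 or 5, when the 2 groups were fitted alone, and on median centring. Slco2a1, the prostaglandin transporter, was higher in every air-ventilated mouse (6283 to 6778) than in any control mouse (5217 to 5968), yet its difference of 0.21 did not pass in limma (adjusted p = 0.073), as it did by CyberT (adjusted p = 0.025).

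Apart from Cd34, the common endothelial markers of this class did not pass. Pecam1 (CD31) differed by -0.10 with air (95% interval -0.24 to 0.04) and by -0.12 with H2S (-0.26 to 0.02). With H2S, Pecam1 did pass on quantile normalizing again. Eng, a co-receptor of transforming growth factor beta, differed by -0.05 (-0.21 to 0.11) and -0.11 (-0.27 to 0.05), and the junction protein Esam by 0.12 in both (-0.06 to 0.29 and -0.06 to 0.30). Egfl7, a secreted vessel protein, differed by 0.07 (-0.09 to 0.24) and -0.06 (-0.22 to 0.11). Over all 39 genes the 95% interval lay within 0.5 log2 of 0 in 27 genes with air and in 25 with H2S.

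**Figure D3:**
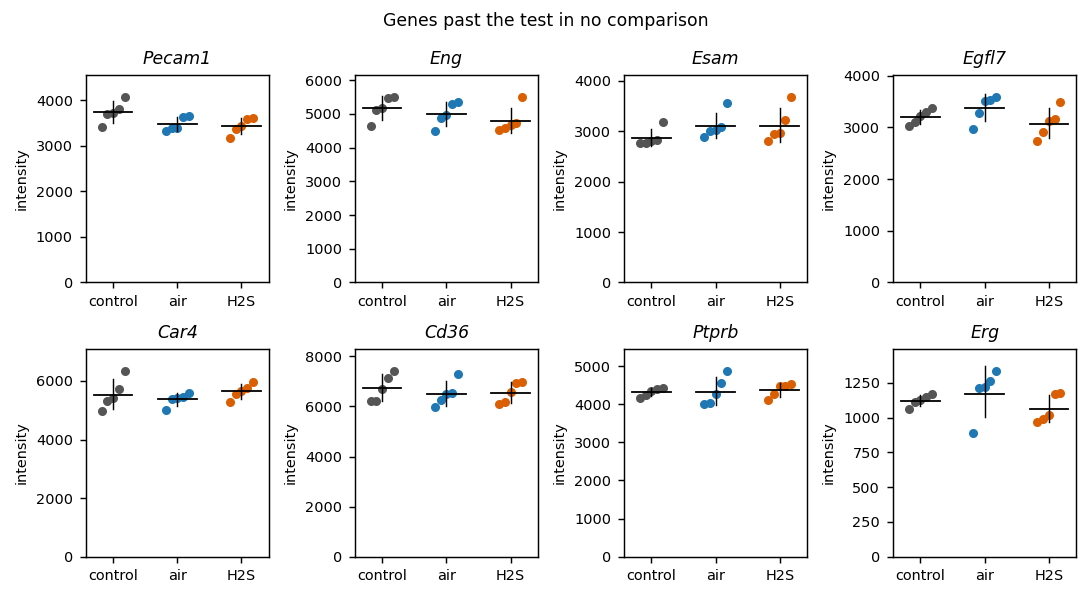
Intensity (linear scale) of 8 widely used endothelial genes that passed in no comparison, in each of the 5 mice of each group; horizontal bars are geometric means and vertical bars 1 SD on the log2 scale. The 3 groups overlap in every panel, and 1 air-ventilated mouse stands low for Erg at 891.

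The transcription factors split, with Sox7 higher and the ETS factors Fli1 and Ets1 lower with H2S, and 0 of 6 past the test with air (limma; 3 at an unadjusted p below 0.05 with air). Sox7 belongs to the SOXF factors that set endothelial and arterial fate. The Sox7 intensities were 548, 630, 741, 795 and 892 in control mice, 774, 774, 847, 1000 and 1179 in air-ventilated mice and 1023, 1035, 1179, 1346 and 1353 in H2S-ventilated mice. The H2S-ventilated mice all lay above the control mice, while the air-ventilated mice overlapped with both groups. Sox7 rose 1.66-fold with H2S (log2 0.73, SE 0.15, limma adjusted p = 0.0053) and stood at 0.34 with air (SE 0.15, adjusted p = 0.27). The difference between H2S and air of 0.39 (95% interval 0.08 to 0.69) did not pass (adjusted p = 0.67). The related Sox17 stood at 0.04 with air and 0.44 with H2S (adjusted p = 0.11), and Sox18 at 0.10 and -0.26, both with intervals of over 0.3 to either side.

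Fli1, an ETS factor of endothelium and blood cells, ranged from 813 to 935 in control mice, from 657 to 796 with air and from 602 to 785 with H2S, without overlap. It fell by 0.31 with H2S (SE 0.08, limma adjusted p = 0.028) and stood at -0.30 with air (adjusted p = 0.054). The call of Fli1 with H2S was lost by CyberT, when the 2 groups were fitted alone, and without control replicate 2 or 4 or H2S replicate 1 or 4. Ets1, an ETS factor that lymphocytes also express strongly, fell by 0.34 with H2S (SE 0.08, adjusted p = 0.014) and stood at -0.28 with air (adjusted p = 0.060). Erg, the ETS factor most restricted to endothelium, differed by 0.06 with air (95% interval -0.15 to 0.27) and by -0.08 with H2S (-0.29 to 0.13). Tal1, a factor of blood and vessel precursors, stood at 0.17 and 0.20 (adjusted p = 0.38 and 0.18).

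Markers of B cells were lower in both ventilated groups. All 7 measured of 8 fell in both comparisons, from Blk at -0.70 to Ms4a1 at -1.82 with air. Of all rows, 3.44% passed with air and 7.86% with H2S. The summed intensity of the B cell markers ranged from 3331 to 5644 in control mice, from 1368 to 3162 with air and from 1261 to 2411 with H2S. Of the 7 T cell markers, 0 passed in either comparison, with sums of 1421 to 2385, 1098 to 2718 and 1364 to 2038. No marker was at 0, and the part of lymphocytes in the results for Ets1 and Fli1 was not tested.

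Of the 3 lymphatic genes, Lyve1 and Mmrn1 rose with H2S, and Prox1, the factor that defines lymphatic fate, did not pass. Lyve1 is a hyaluronan receptor of lymphatic endothelium that some macrophages also carry. The Lyve1 intensities were 4149, 4949, 5643, 6403 and 6900 in control mice, 7233, 7327, 7633, 7714 and 7906 in air-ventilated mice and 6828, 7286, 7986, 9178 and 9667 in H2S-ventilated mice. The air-ventilated mice all lay above control, and 1 H2S-ventilated mouse lay just below the highest control mouse. Lyve1 rose 1.47-fold with H2S (log2 0.56, SE 0.13, limma adjusted p = 0.012) and stood at 0.45 with air (SE 0.13, adjusted p = 0.065), where it passed by CyberT (adjusted p = 0.000223).

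Mmrn1 (multimerin 1), found in lymphatic endothelium and platelets, rose as well. The Mmrn1 intensities were 319, 320, 336, 356 and 381 in control mice, 377, 386, 453, 456 and 481 in air-ventilated mice and 408, 427, 437, 489 and 585 in H2S-ventilated mice. Mmrn1 was higher in every H2S-ventilated mouse than in any control mouse, by 1.36-fold (log2 0.44, SE 0.10, limma adjusted p = 0.014), and stood at 0.33 with air (adjusted p = 0.11, and 0.048 by CyberT). Prox1 had intensities of 64 to 91 in control mice, 56 to 95 with air and 75 to 94 with H2S, which overlapped. Its difference was -0.12 with air (95% interval -0.40 to 0.15) and 0.08 with H2S (-0.19 to 0.36), and 1 of the 39 genes, Prox1, lay below the median of the rows.

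The macrophage markers gave 1 call of 8 with air (12.5%, against 3.44% of all rows) and 2 of 8 with H2S (25%, against 7.86%). All were higher: Mrc1 at 0.37 (limma adjusted p = 0.011) and 0.53 (adjusted p = 0.00059), and Marco at 0.52 with H2S (adjusted p = 0.030). Passed or not, 5 of the 8 markers were higher and 3 lower with air, and 7 were higher and 1 lower with H2S. This list summed to between 7198 and 8134 in control mice, 7996 and 8410 with air, and 8235 and 9517 with H2S. The H2S-ventilated mice lay above control in this sum, in which bright markers weigh most. By the mean log2 of the same 8 markers the 2 groups overlapped, at 9.17 to 9.43 in control mice and 9.35 to 9.58 with H2S. Of the 6 platelet markers measured, 0 passed in either comparison, with sums of 3162 to 3879, 2093 to 3713 and 2365 to 4086. No marker of these lists was at 0, and the part of macrophages and platelets in the lymphatic gene results was not tested.

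**Figure D4:**
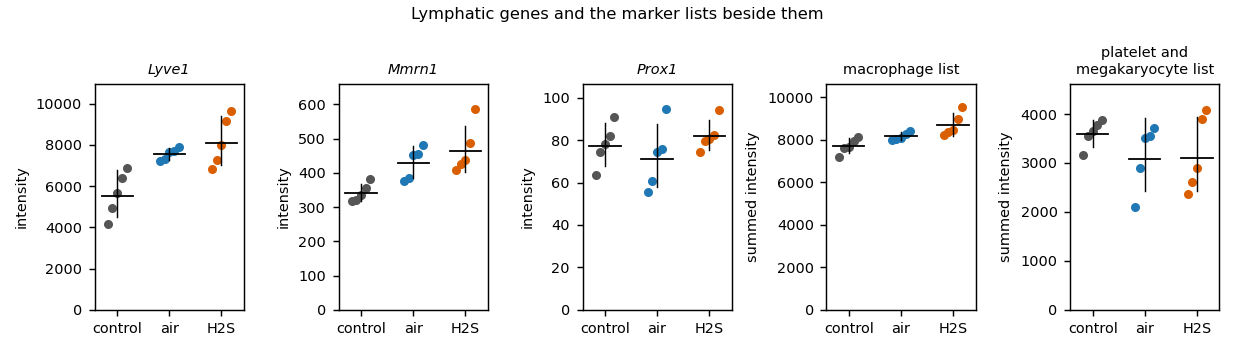
Intensity (linear scale) of the 3 lymphatic genes and summed intensity of the macrophage and platelet marker lists in each of the 5 mice of each group; horizontal bars are geometric means and vertical bars 1 SD on the log2 scale. The H2S-ventilated mice lie wholly above control for Mmrn1 and the macrophage sum, whereas the groups overlap for Prox1 and the platelet sum.

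Addition of H2S to the ventilation air left the endothelial genes without a detected difference, as it did nearly all rows. In H2S against air, 0 of 39 passed (limma; 4 at an unadjusted p below 0.05, and by CyberT 0 after adjustment and 6 before), against 0.0776% of all rows, and 0 passed the thresholds of the study, against 0.0599%. In none of the 39 did the groups separate, against 1.2% of rows. Counts of 0 lie near these shares and so say little about endothelial genes in particular. The 4 genes were Sox17 (log2 0.39), Sox7 (0.39), Podxl (0.17) and Clec14a (-0.24), with limma adjusted p between 0.67 and 0.84. Sox17 was measured at 359 to 613 with air and 471 to 869 with H2S.

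The intervals show what size could be missed. In 34 of 39 genes the 95% interval of the H2S minus air difference lay within 0.5 log2 of 0. It was -0.25 to 0.47 for Gja5, -0.38 to 0.13 for Tek, -0.41 to 0.30 for Angpt2 and -0.17 to 0.37 for Lyve1. For Sox18, the widest to the lower side, it was -0.75 to 0.04. The widest to the upper side was that of Sox17, which reached 0.73.

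**Figure D5:**
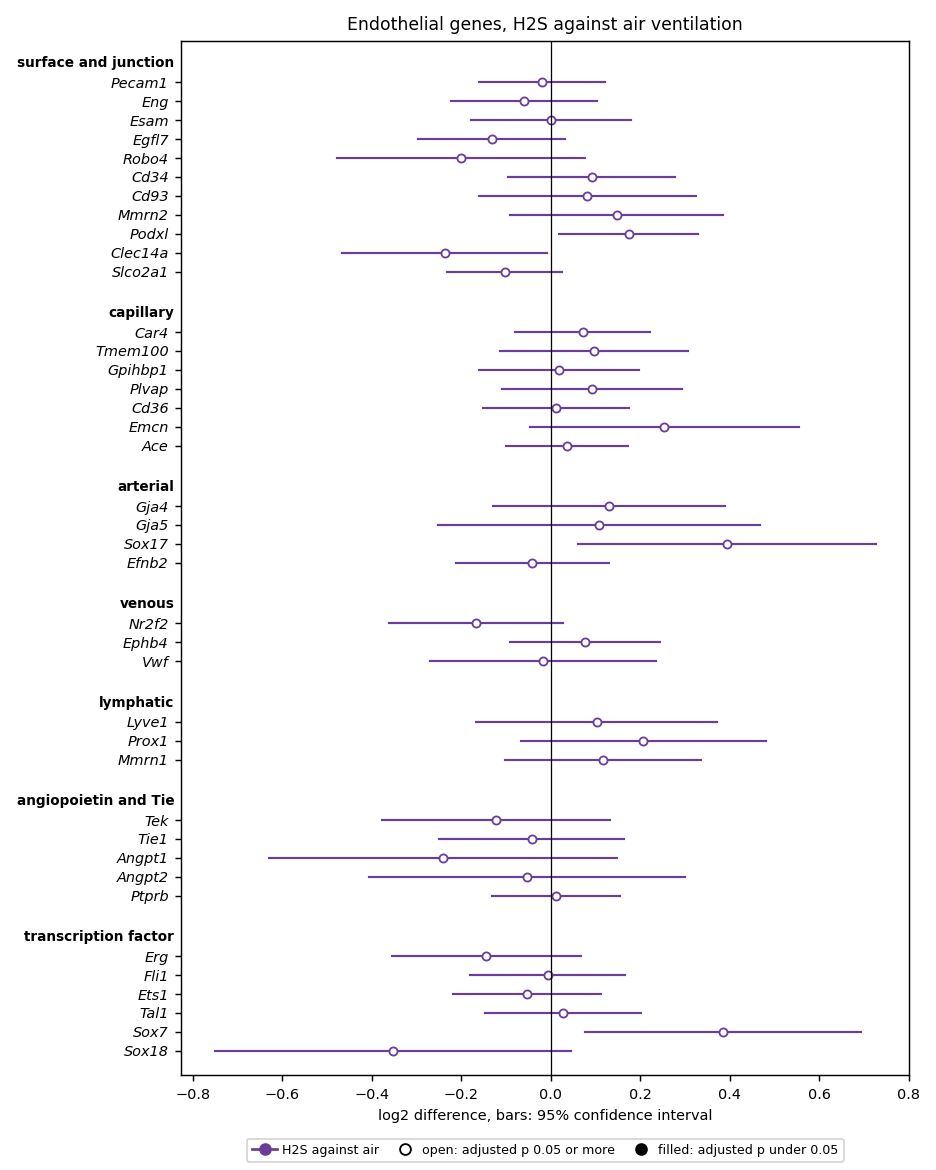
Log2 difference of each endothelial gene between H2S-ventilated and air-ventilated mice, 5 in each group, by class; bars are 95% confidence intervals and open points did not pass. All points are open, and those of Sox17 and Sox7 lie farthest to the right at 0.39.

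A second list of 36 further endothelial genes, of which 35 were measured, gave 8 calls with air (3 higher, 5 lower), 9 with H2S (5 higher, 4 lower) and 0 between the ventilated groups (limma; 5 at an unadjusted p below 0.05). The calls were 22.9% of the list with air and 25.7% with H2S, against 3.44% and 7.86% of all rows. This list too was chosen with earlier results of these data known, so its shares are not independent evidence. At the thresholds of the study 3 passed with air and 2 with H2S, against 0.959% and 1.45% of all rows. The median log2 fold change of the 35 genes was -0.05 with air and -0.09 with H2S. Among receptors, Kdr (VEGF receptor 2) fell by 0.58 with air and by 0.83 with H2S (adjusted p = 0.0095 and 0.00061), whereas Flt1 (VEGF receptor 1) rose by 0.52 with H2S (adjusted p = 0.017). The apelin receptor Aplnr fell by 1.55 and 1.75, and its ligand Apln fell by 0.80 with air. The largest rises of the list in both comparisons were those of Fibin, which encodes a secreted protein, by 0.80 and 0.60 (adjusted p = 0.0026 and 0.0047). The adhesion receptor Adgrl4 rose by 0.43 and 0.31. Cdh5, the cadherin of endothelial junctions, differed by -0.05 and -0.01 and did not pass.

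The labels number the mice from 1 to 12, 3 in each group, and from 20 to 28, 2 in each group, without saying what the numbers stand for. All 7 genes that passed with air and all 13 with H2S had the same sign within both sets of numbers. Because they were picked on the mice of both sets together, the shared sign was largely fixed by that choice. It is not independent evidence. Within numbers 1 to 12 alone, 5 and 4 of them passed, and within 20 to 28 alone 0 and 0 (limma). Of all 39 genes, 3 with air and 8 with H2S had an unadjusted p below 0.05 within 20 to 28 (limma). These counts include Tal1 in both comparisons and Sox17 with H2S, which did not pass in limma over all mice. The size differed between the sets: Gja5 stood at -1.44 and -0.68 with air, Tek at -0.82 and -0.22 with H2S, and Lyve1 at 0.81 and 0.18 with H2S, for 1 to 12 and 20 to 28 respectively. Mmrn1 stood at 0.35 and 0.59 with H2S. Between the sets themselves 6.26% of all rows and 1 of the 39 genes, Sox18, differed at an adjusted p below 0.05, with Sox18 higher by 0.43 in numbers 20 to 28.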

How the data were processed

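Expression was measured on Affymetrix whole-transcript arrays of lung RNA. The authors read the images with Command Console. In Genedata Expressionist Refiner they estimated background by GC content from anti-genomic probes and removed it, then quantile normalized the arrays and summarised probes by RMA, which the submitters' processing notes also name. The deposited table holds intensities on a linear scale for main and unmapped transcript clusters of annotation NA32. These intensities were transformed to log2 for this work, although the values had been expected as log2. Such a scale is relative, and quantile normalization gives all arrays nearly the same distribution: array medians were 184 to 187 in control mice, 179 to 187 with air and 180 to 185 with H2S.

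All 28361 rows and 15 arrays entered 1 limma fit (version 3.58.1, R 4.3.3, functions lmFit, contrasts.fit and eBayes) with 3 groups, no covariate and Benjamini-Hochberg adjustment over all rows. The fit was also run on simulated data with independent noise and planted changes. That run checks the code and does not bear on the calls reported here. Symbols are those of the platform annotation, in which 21780 rows had 1 symbol, 1617 had several and 4964 had none. Any measured gene of the list could be named, and values of every mouse were given for those that led their class and for some others that passed. The genes and lists were chosen with earlier results of these data known. Plots were drawn in matplotlib 3.10.9 under Python 3.11.15.

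Alternatives were CyberT (confidence 15, window 101), the methods' test, the 2 compared groups alone, a variance trend, array weights, leaving out the lowest 25% of rows, an offset of 16, quantile normalization again, median centring, blocks by the label numbers, each number set alone, the mean of the rows of a gene, and leaving out each mouse. No list tests were run. The labels name separate mice, and their number limits the precision.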

Additional observations from a re-analysis of the deposited data

Results flagged for a closer look

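Of 117 groups of 5 mice (39 genes in 3 groups), 3 held a mouse whose distance to its nearest neighbour was large for the range of its group, where chance flags about 1 in 20 groups and so 5.85 here. For Erg, air-ventilated replicate 1 stood low at 890.98, with the others at 1215 to 1335. For Eng, H2S-ventilated replicate 4 stood high at 5493.70, with the others at 4527 to 4728. For Esam, control replicate 3 stood high at 3179.03, with the others at 2770 to 2824. None of these 3 genes passed in any comparison (limma).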

How the results depend on the processing

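The counts of endothelial genes past an adjusted p of 0.05 were 7 (air against control), 13 (H2S against control) and 0 (H2S against air). With air the count was 14 by CyberT (4 higher, 10 lower), 12 with a variance trend (3 higher, 9 lower), 15 with array weights (5 higher, 10 lower), 12 without the dimmest 25% of rows (3 higher, 9 lower) and 0 in the mice numbered 20 to 28 alone. With H2S it was 4 in the mice numbered 1 to 12 and 0 in those numbered 20 to 28, sets with fewer mice. The cause of the other shifts was not tested. Leaving out 1 mouse in turn gave 4 to 10 genes with air and 8 to 13 with H2S. The count of 4 with air came without control replicate 3, 4 or 5 or air-ventilated replicate 5, and that of 8 with H2S without control replicate 4. Median centring kept 7 with air, 2 of them higher. Between H2S and air the count was 0 under each alternative.

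The label numbers, taken in runs of 4, were not treated as pairing the mice: mice of the same run correlated at 0.21 on average, from -0.18 to 0.46, and 6 of 15 mice correlated best with their own run. With the runs as a replicate block the counts were 7, 14 and 0, Gpihbp1 being added with H2S. Over single genes and alternatives, 3023 values kept direction and side of the threshold, 55 newly passed and 91 no longer passed. Another 107 changed sign without passing before or after, 27 of them in the mice numbered 20 to 28 alone, and 0 of those that passed in either fit did. The gains with air in the first 4 alternatives included Lyve1, Ace, Fli1 and Slco2a1 each time. In Prox1, the signal limits what can be seen.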

Other observations

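Mir126a, the gene of a microRNA abundant in endothelium, lies within Egfl7. Its own row was higher with air, at 134 to 268 against 54 to 115 in control mice (log2 1.08, SE 0.22, limma adjusted p = 0.012), and stood at 0.63 with H2S (101.3 to 195.6, adjusted p = 0.10). The difference of -0.45 between H2S and air ventilation did not pass (adjusted p = 0.90). Egfl7 differed by 0.07 with air and by -0.06 with H2S. Mir126a also stands in a gene table of the study drawn from these arrays. The mature form, with its seed (bases 2 to 8) in capitals, is given by RefSeq for GRCm38.p6 at chr2:26591402-26591423, plus strand. The row may read the precursor or host transcript rather than this form.
mmu-miR-126a-3p: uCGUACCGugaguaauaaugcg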
